A study of Mus musculus with 10 samples.

Results

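The genes described here build the meiotic spindle, monitor its attachment to chromosomes and time anaphase. They were chosen by name: 36 genes whose symbol is the only one that the platform annotation gives for a probe set. They were represented by 78 probe sets among the 45101 on each array, and by 36 of the 18193 genes with a symbol of their own. The RNA came from mouse germinal vesicle oocytes, which are full-size but still arrested in prophase of meiosis I. A wild-type group and a group depleted of CTCF had 5 arrays each. CTCF is a DNA-binding protein of insulators that shapes the loops of chromosomes. The labels gave no strain, age, allele or means of depletion, nor how many oocytes or animals stood behind a sample. The p-values therefore rest on differences among these samples alone, and those may be technical.

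Oocytes at this stage store many messages that are used only after meiosis resumes. On resumption, kinases of the Polo and Aurora families build the spindle, and the spindle checkpoint holds anaphase back until kinetochores are attached. The anaphase-promoting complex, a ubiquitin ligase switched on by Cdc20 or Fzr1, then has securin (Pttg1) and cyclin B destroyed. This frees separase (Espl1) to cut cohesin, while shugoshins keep it at the centromere. The phosphatase PP2A opposes the mitotic kinases, and Mastl holds it down through Ensa and Arpp19. In the mouse oocyte, Fzr1 also helps to keep the prophase arrest.

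The labels held for the depleted transcript: Ctcf signal on the brighter of its probe sets lay between 898 and 1071 on wild-type arrays and between 16.7 and 95.8 on depleted arrays. Depleted replicate 5 had the highest of these residual values, 95.8, against at most 29.3 on the others. The arrays were scaled alike, with 49.4% to 62.9% of probe sets above the highest Bacillus control probe set of the same array, and arrays have no read depth, so their number limits the precision. Of 14 oocyte markers, 13 had a probe set, and these were above that control level on all arrays. None of the 13 was called by limma, with 2 at an unadjusted p under 0.05. Of 16 granulosa and cumulus markers, 15 had a probe set, 9 to 13 of them lay above the control level on wild-type arrays and 12 to 13 on depleted arrays. Their summed signal ran from 1018 to 2439 in wild type and from 1027 to 1375 in depleted oocytes. The highest sum was that of wild-type replicate 2, where Gja1 read 1017 against at most 210 on the other wild-type arrays. Of the 14 granulosa and cumulus markers tested, Fshr, Ptgs2 and Nr5a2 were called higher in depleted oocytes and 0 were called lower. These were 21.4%, against 16.4% of all genes tested. Ptgs2 was above the control level on 0 wild-type arrays. Log2 fold changes, depleted over wild type, were positive for 6 of the 14 and negative for 8. The negative ones included Has2 (-0.96), Gja1 (-0.72), Kitl (-0.45) and Inha (-0.43), none of them called. Tnfaip6 was under the control level on every array. Among 7 markers of blood, immune and endothelial cells, 2 to 5 lay above the control level on an array. The part of these markers in the results was not tested. The numbers of called genes among the 36 and among other pathway genes are also given without wild-type replicate 2 and without depleted replicate 5.

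On arrays scaled to equal mean signal, most spindle, checkpoint and anaphase control transcripts had nearly the same signal with and without CTCF. Of the 36 genes, 3 rose (Cenpa, Ccna2 and Fbxo5) and 3 fell (Cdc14b, Ensa and Aurkb) in limma with Benjamini-Hochberg adjustment over all 27022 probe sets tested. These 6 were 16.7% of the genes, and over all 13811 genes tested 16.4% were called, 7.26% higher and 9.12% lower. The share called was therefore close to the background. All 36 passed the filter on dim probe sets, and all were above the control level on all 10 arrays. The largest change on a brightest probe set was 1.38-fold, in Cdc14b. Among the other tested probe sets, a dim one of Spc25 gave 1.41-fold, not called. None of the 36 passed 1.5-fold, which 1182 of all genes tested (8.56%) did. Their median log2 fold change, depleted over wild type, was -0.0067, against -0.017 over all genes tested, and their median absolute value was 0.065 against 0.16. The standard errors were smaller as well, with a median of 0.055 for the 36 genes and 0.11 over all genes. The 36 genes were also brighter, with a median wild-type signal of 1597 against 108 over all genes tested. The part of brightness in their smaller changes was not tested. Median centring of the arrays gave 3 genes higher and 1 lower, and over all genes 1418 higher and 709 lower in place of 1003 and 1260. Without wild-type replicate 2, as without depleted replicate 5, 2 were called higher and 3 lower. In bulk samples, fewer cells of a type and less RNA per cell cannot be told apart.

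**Figure D1:**
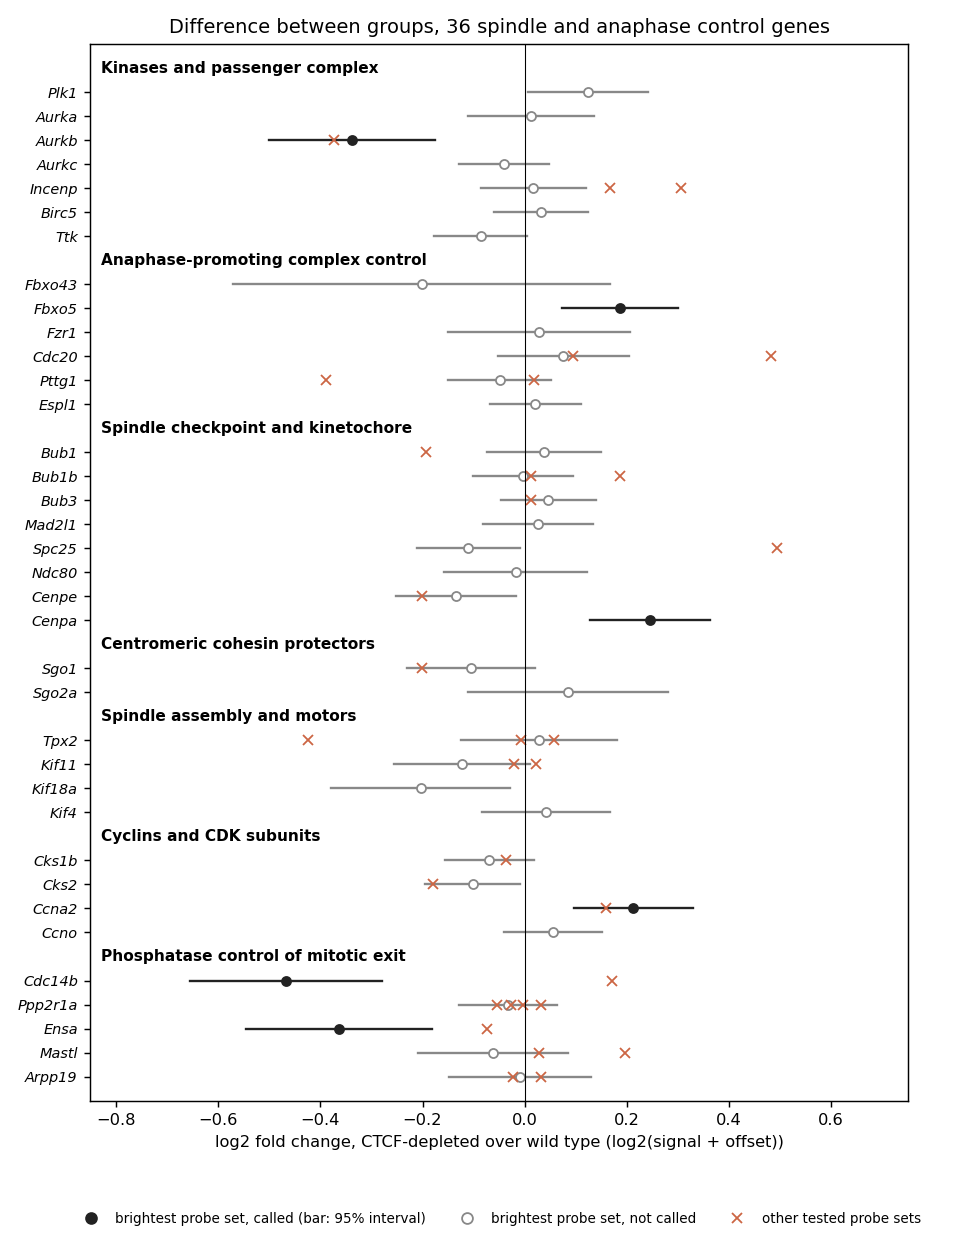
Log2 fold change of each of the 36 genes, CTCF-depleted over wild type, on its brightest probe set (circles, filled where called, bars giving the 95% interval) and on its other tested probe sets (crosses), grouped by role. The 6 called genes lie between -0.47 and 0.25, and the other circles lie between -0.20 and 0.12.

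For the 30 genes not called, the intervals of the brightest probe set show how large a change that probe set would allow. The 95% interval of the difference lay within 1.3-fold in either direction for 28 of them and within 1.5-fold for all 30. The exceptions to the narrower limit were Fbxo43 and Kif18a. Some dimmer probe sets of these genes had wider intervals. Examples are Cdc20 (log2 fold change 0.48, 95% interval -0.040 to 1.00) and Tpx2 (-0.42, 95% interval -0.81 to -0.041), neither called. Cenpe, Sgo1 and Cks2, among the 30, were called lower on another probe set. Over all 36 genes, called or not, the SD of the 5 arrays was a median of 5.49% of the mean signal in wild type and 5.94% in depleted oocytes. It was under 10% in both groups for 30 of the 36. The others were Fbxo43, Fzr1, Sgo2a, Tpx2, Kif18a and the called gene Ensa. The groups did not overlap for 4 genes, or 11.1%, against 14.2% of all genes tested. Over probe sets, 68 of the 78 were tested and 9 were called, 3 higher and 6 lower, against 12.6% of all probe sets tested.

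**Figure D2:**
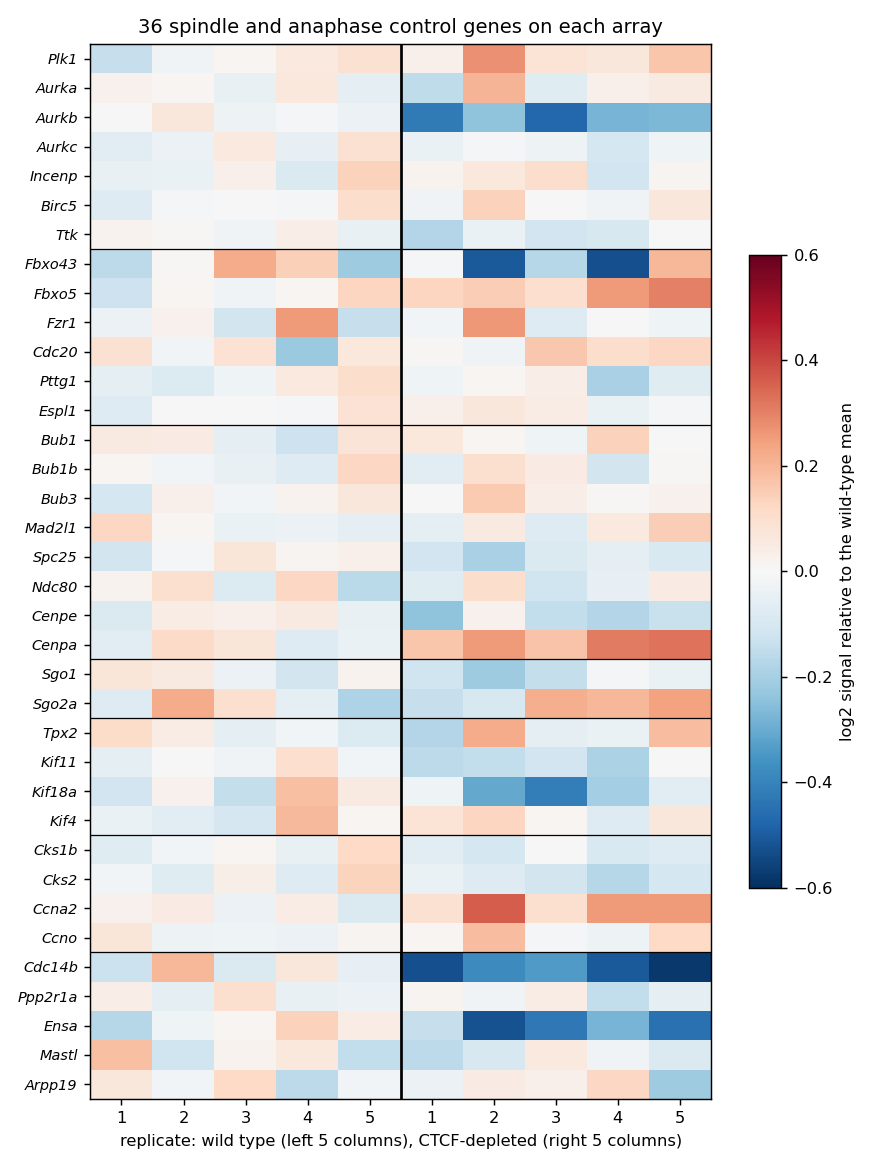
Log2 signal of the 36 genes on each of the 10 arrays relative to the wild-type mean of the gene, with red for higher and blue for lower values and lines between role groups. Cenpa, Ccna2 and Fbxo5 are red, and Cdc14b, Ensa and Aurkb blue, across the 5 depleted arrays, and most other genes are pale throughout.

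The 3 genes that rose act at the centromere, at the entry into M phase and on the anaphase-promoting complex. Cenpa, the histone H3 variant that marks centromeres, had signals of 895, 1014, 986, 889 and 912 in wild-type replicates 1 to 5 and of 1053, 1120, 1058, 1165 and 1175 in depleted replicates 1 to 5. Every depleted array was above every wild-type array. Cenpa was 1.19-fold higher, with a log2 fold change of 0.25 and an SE of 0.06 (limma, Benjamini-Hochberg adjusted p = 0.00675; exact permutation p = 0.00794, two-sided and the lowest possible with 5 arrays a group). It was called under all 11 other settings and whichever array was left out. The other Cenpa probe sets, with signals from 0.43 to 12.4 over all arrays, were too dim to be tested. The setting that averaged the tested probe sets of a gene therefore left the Cenpa values as they were.

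Ccna2, which encodes cyclin A2, read 1988, 2023, 1904, 2017 and 1839 on the wild-type arrays and 2078, 2512, 2091, 2333 and 2330 on the depleted arrays, so that the groups did not overlap. The highest value was that of depleted replicate 2. The difference was 1.16-fold, a log2 fold change of 0.21 with an SE of 0.05 (limma, Benjamini-Hochberg adjusted p = 0.0163). On its dimmer probe set, Ccna2 read 800.2, 771, 749, 701 and 739 in wild type and 830, 782, 814, 887 and 889 in depleted oocytes. These groups overlapped, and the difference, in the same direction, was not called (limma, adjusted p = 0.0762). With the ratio of 3-prime to 5-prime control signal as a covariate, and with no intensity trend in the variance, the brighter probe set was not called either. That log2 ratio ran from 2.80 to 3.11 on wild-type and from 2.60 to 2.96 on depleted arrays.

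Fbxo5, also called Emi1, an inhibitor of the anaphase-promoting complex, had signals of 1766, 1938, 1894, 1939 and 2102 in wild type and of 2104, 2133, 2067, 2296 and 2371 in depleted oocytes. The groups overlapped, because wild-type replicate 5 was above depleted replicate 3. It was 1.14-fold higher, with a log2 fold change of 0.19 with an SE of 0.05 (limma, Benjamini-Hochberg adjusted p = 0.0289), and it has only this probe set. The call was lost when any 1 of 6 arrays was left out (wild-type replicates 1 to 4 and depleted replicates 4 and 5), where the adjusted p reached 0.0806. It was also lost with no filter on dim probe sets, with no intensity trend and with the covariate.

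**Figure D3:**
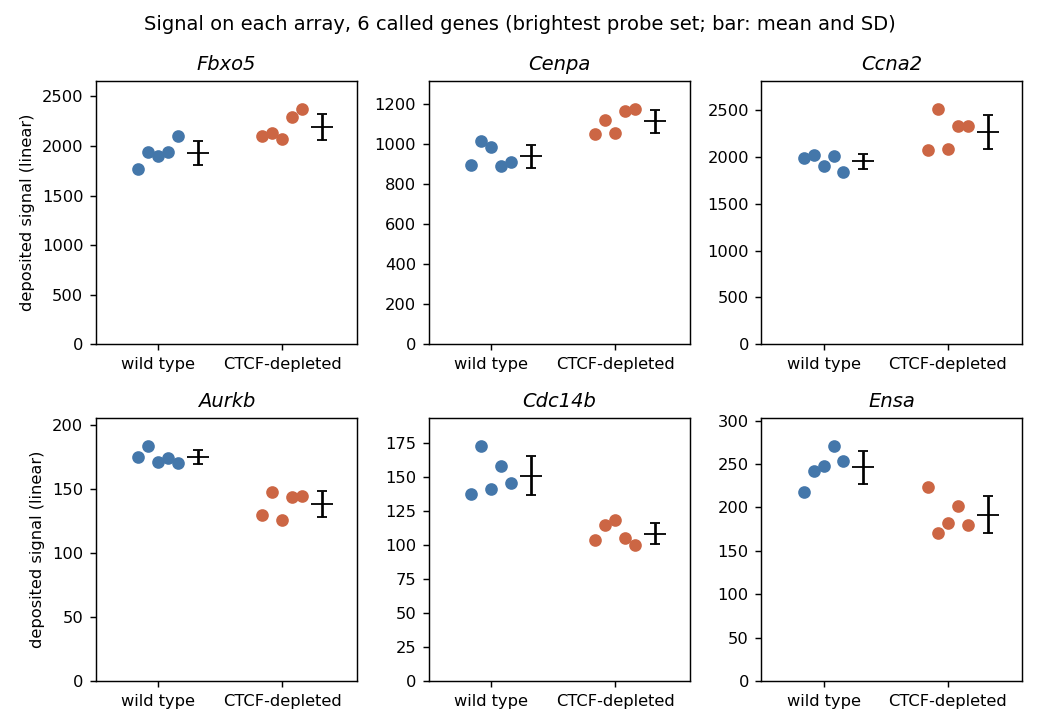
Deposited linear signal of the 6 called genes on each array (points in order of replicate number) with the mean and SD of each group, every vertical axis starting at 0. Depleted points lie above wild-type points for Cenpa and Ccna2 and below them for Aurkb and Cdc14b, and the groups overlap slightly for Fbxo5 and Ensa.

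Of the 3 genes that fell, Cdc14b and Ensa act in phosphatase control and Aurkb is a kinase. Cdc14b, a phosphatase that in mouse oocytes helps to keep the prophase arrest, read 138, 173, 141, 158 and 145 on the wild-type arrays and 104, 115, 118, 106 and 99.9 on the depleted arrays. The groups did not overlap. The log2 fold change was -0.47 ± 0.09 (SE; limma, Benjamini-Hochberg adjusted p = 0.00189). The dimmer Cdc14b probe set read 26.5, 23.4, 21.2, 33.2 and 27.5 in wild type and 35.9, 25.2, 39.6, 34.4 and 18.2 in depleted oocytes. These groups overlapped, with a log2 fold change of 0.17 that was not called. When the probe sets were averaged, the log2 fold change was -0.15 and Cdc14b was not called.

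Ensa, the endosulfine that inhibits PP2A once Mastl has phosphorylated it, had signals of 218, 242, 248, 271 and 253 in wild type and of 223, 170, 182, 202 and 179 in depleted oocytes. Depleted replicate 1 lay within the wild-type range and the other 4 depleted arrays below it. Ensa was 1.29-fold lower, a log2 fold change of -0.36 with an SE of 0.09 (limma, Benjamini-Hochberg adjusted p = 0.00926). Its dimmer probe set read 69.998, 71.7, 52.9, 41.5 and 71.8 in wild type and 59.7, 82.3, 37.1, 54.4 and 60.8 in depleted oocytes. These groups overlapped, with a log2 fold change of -0.074 that was not called. Ensa was not called under median centring or when its probe sets were averaged.

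Aurkb, the kinase of the chromosomal passenger complex, read 175, 184, 171, 174 and 170 in wild type and 130, 148, 125, 144 and 145 in depleted oocytes, with no overlap. It was 1.26-fold lower, a log2 fold change of -0.34 with an SE of 0.08 (limma, Benjamini-Hochberg adjusted p = 0.00690). Its dimmer probe set read 72.1, 77.9, 69.7, 62.2 and 66.9 in wild type and 42.04, 55.3, 53.4, 65.3 and 52.3 in depleted oocytes, where depleted replicate 4 lay within the wild-type range. The log2 fold change there was -0.37 ± 0.12 (SE), which was not called (limma, adjusted p = 0.0509). Under median centring the brighter probe set was not called. Its name carries the platform's suffix for probe sets that may also detect related sequences, as do those of the brightest probe sets of Cdc20, Incenp and Ppp2r1a.

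Other kinases and passenger proteins were not called. Plk1, the Polo kinase of spindle assembly, had a mean signal of 1713 ± 104 (SD, n = 5) in wild type and 1868 ± 128 in depleted oocytes, a log2 fold change of 0.12 with a 95% interval of 0.0056 to 0.24. Aurka, the kinase of the spindle poles, had a log2 fold change of 0.012, and Aurkc, the Aurora kinase of germ cells that shares the passenger complex with Aurkb, of -0.041 (95% interval -0.13 to 0.047). Aurkc signal was 3667 ± 180 in wild type and 3561 ± 93.8 in depleted oocytes. The difference between the changes of Aurkb and Aurkc was not tested. Incenp, the scaffold of the complex, read 5622, 5635, 5917, 5446 and 6369 in wild type and 5866, 6043, 6224, 5348 and 5848 in depleted oocytes, which overlapped, and its log2 fold change was 0.017. Its dimmer tested probe sets gave 0.17 and 0.31, neither of them called. Birc5, the survivin subunit, had 0.032. Ttk, the checkpoint kinase also called Mps1, had -0.086.

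Among the regulators of the anaphase-promoting complex, only Fbxo5 was called. Its relative Fbxo43 (Emi2), which holds the egg at metaphase II, was the dimmest of the 36 genes on its own probe set, at 24.99 ± 3.55 (SD, n = 5) in wild type and 21.7 ± 5.30 in depleted oocytes. Its log2 fold change of -0.20 had the widest 95% interval, -0.57 to 0.17. The activators Fzr1 and Cdc20 had log2 fold changes of 0.028 and 0.076, with 349 ± 40.2 against 355 ± 34.99 for Fzr1 and 1958 ± 171 against 2059 ± 111 for Cdc20. The dimmer Cdc20 probe sets gave 0.096 and 0.48, neither of them called. Securin, encoded by Pttg1, read 7267, 7117, 7400, 7834 and 8092 in wild type and 7406, 7588, 7753, 6573 and 7154 in depleted oocytes. These overlapping values gave a log2 fold change of -0.049, but the highest signal of any probe set was 8130 to 10019 per array, so it lay near the top of the scale. A dimmer Pttg1 probe set, at 2858 ± 126 and 2898 ± 186, gave 0.019. Separase, encoded by Espl1, had 2521 ± 102 and 2556 ± 75.9, a log2 fold change of 0.020 with a 95% interval of -0.069 to 0.11.

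Of the checkpoint and kinetochore genes, only Cenpa was called on its brightest probe set. Bub1b, the checkpoint protein BubR1, read 7162, 7037, 6906, 6744 and 7758 in wild type and 6791, 7613, 7371, 6591 and 7146 in depleted oocytes, with a log2 fold change of -0.0042, and it too lay near the top of the scale. The less bright of its strong probe sets, at 5338 ± 95.9 (SD, n = 5) and 5388 ± 292, gave 0.012. Bub1, Bub3 and Mad2l1, which carry the checkpoint signal with it, had log2 fold changes of 0.038, 0.046 and 0.026 on their brightest probe sets. None of these had a 95% interval reaching beyond -0.082 or 0.15. The dimmer Bub1 probe set gave -0.19 (95% interval -0.40 to 0.014) and the dimmer tested one of Bub3 0.013, neither of them called. At the kinetochore, the Ndc80 complex subunits Ndc80 and Spc25 had -0.018 and -0.11, and Spc25 was not called (limma, adjusted p = 0.156).

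Cenpe, a kinetochore motor, and Sgo1, a shugoshin, were not called on their brightest probe sets but were on another. On its brightest probe set Cenpe had 1175 ± 50.1 (SD, n = 5) and 1071 ± 74.5, a log2 fold change of -0.13. On its other probe set it read 570, 645, 572, 598 and 626 in wild type and 521, 489, 528, 571 and 507 in depleted oocytes, where depleted replicate 4 was just above wild-type replicate 1. The log2 fold change there was -0.20 (limma, Benjamini-Hochberg adjusted p = 0.0367). With the covariate, and without depleted replicate 2, the brightest probe set was called lower too. Sgo1 read 632, 624, 588, 557 and 611 in wild type and 553, 518, 545, 598 and 585 in depleted oocytes, overlapping groups with a log2 fold change of -0.11. On its dimmer probe set the values were 284, 272, 279, 286 and 291 against 244, 237, 257, 253 and 235, with every depleted array below every wild-type array and a log2 fold change of -0.20 (limma, adjusted p = 0.0432). Its paralogue Sgo2a, the shugoshin that protects centromeric cohesin in meiosis I in mouse oocytes, had 375 ± 42.5 and 398 ± 49.8, a log2 fold change of 0.085 with a 95% interval of -0.11 to 0.28.

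Of the 4 genes of spindle assembly and motors 0 were called by limma, with 1 at an unadjusted p under 0.05. Kif4, a motor on chromosome arms, read 1394, 1367, 1333, 1642 and 1445 in wild type and 1514, 1565, 1446, 1356 and 1503 in depleted oocytes. The groups overlapped and the log2 fold change was 0.042. Kif11, the motor that pushes spindle poles apart, had a log2 fold change of -0.12, and Tpx2, which activates Aurka on the spindle, had 0.028. The dimmer Tpx2 probe sets gave 0.057, -0.42 and -0.0081, none of them called. Kif18a, a motor that shortens microtubule plus ends, was 477 ± 44.0 (SD, n = 5) in wild type and 414 ± 46.2 in depleted oocytes. Its log2 fold change of -0.20, with a 95% interval of -0.38 to -0.028, did not pass over all probe sets (limma, Benjamini-Hochberg adjusted p = 0.128).

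Of the cyclins and small CDK-binding subunits, Ccna2 was called and the others were not on their brightest probe sets. Ccno, which encodes cyclin O, read 5096, 4735, 4749, 4729 and 4898 in wild type and 4880, 5503, 4798, 4735 and 5266 in depleted oocytes, a log2 fold change of 0.055 with overlapping groups. Cks1b and Cks2, the CDK-binding proteins, had log2 fold changes of -0.069 and -0.10. Cks2, which mouse germ cells need to leave metaphase of meiosis I, was called lower on its dimmer probe set, where the values were 3346, 3213, 3318, 3342 and 3538 against 3074, 2691, 2951, 2979 and 3115 and did not overlap. Its log2 fold change there was -0.18 (limma, Benjamini-Hochberg adjusted p = 0.0146). With the probe sets of each gene averaged, Cks2, Sgo1 and Cenpe were called lower beside Aurkb, while Cdc14b and Ensa were not, so that 4 of the 36 genes were called lower.

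The partners of Ensa were not called. Mastl, the Greatwall kinase that phosphorylates Ensa and Arpp19, had 579 ± 55.0 (SD, n = 5) and 554 ± 32.2, a log2 fold change of -0.061 with a 95% interval of -0.21 to 0.086. Arpp19, the relative of Ensa that Mastl also phosphorylates, had 1255 ± 91.3 and 1248 ± 106, a log2 fold change of -0.0093, and its other probe sets gave 0.032 and -0.022. Ppp2r1a, the scaffold subunit of PP2A, read 3384, 3177, 3520, 3193 and 3213 in wild type and 3332, 3243, 3394, 2975 and 3177 in depleted oocytes, and its 5 probe sets gave log2 fold changes from -0.054 to 0.031. The difference between the changes of Ensa and Arpp19 was not tested.

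Probe sets of the same gene often disagreed in the sign of small differences. Of the 36 genes, 20 had another tested probe set, 32 in all, and 19 of these had the sign of the brightest one and 13 the opposite sign. For 10 genes all tested probe sets had the same sign. Among the called genes, the other tested probe sets of Aurkb, Ccna2 and Ensa had the same sign and that of Cdc14b the opposite.

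The promoters of these genes are shown for the called genes for which RefSeq (GRCm38.p6) gave one, Cenpa, Fbxo5, Ensa and Cdc14b, because these genes moved, and beside them for Cdc20 and Espl1, which were not called. In the cell cycle of somatic cells, many genes of mitosis are switched through a CHR element and neighbouring CCAAT boxes, elements near the start of the gene. The letters searched, on both strands, were TTTGAA for the CHR element and CCAAT for the CCAAT box, beside the 12-letter core of the CTCF motif. The 180 bases before the annotated start are given, with capitals for matches to any of these, so that ATTGG is a CCAAT box and TTCAAA a CHR element on the other strand. Cdc14b has another, downstream start, not shown, with no match to any of the motifs. Cdc20 and Espl1 were picked because both elements lie before their start, so the printed sequences do not compare called with uncalled genes.
Cenpa, chr5:30666706-30666885, plus strand: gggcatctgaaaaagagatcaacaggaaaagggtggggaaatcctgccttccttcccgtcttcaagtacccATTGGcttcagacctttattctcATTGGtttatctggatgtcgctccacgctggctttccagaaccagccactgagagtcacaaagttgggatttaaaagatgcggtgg
Fbxo5, chr10:5805466-5805645, minus strand: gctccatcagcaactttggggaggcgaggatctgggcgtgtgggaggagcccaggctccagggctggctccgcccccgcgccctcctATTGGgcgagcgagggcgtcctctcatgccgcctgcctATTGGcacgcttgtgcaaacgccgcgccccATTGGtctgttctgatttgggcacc
Ensa, chr3:95624800-95624979, plus strand: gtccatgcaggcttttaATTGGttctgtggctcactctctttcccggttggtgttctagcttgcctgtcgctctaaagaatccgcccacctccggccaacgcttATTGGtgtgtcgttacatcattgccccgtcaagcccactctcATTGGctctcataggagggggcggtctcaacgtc
Cdc14b, chr13:64274989-64275168, minus strand: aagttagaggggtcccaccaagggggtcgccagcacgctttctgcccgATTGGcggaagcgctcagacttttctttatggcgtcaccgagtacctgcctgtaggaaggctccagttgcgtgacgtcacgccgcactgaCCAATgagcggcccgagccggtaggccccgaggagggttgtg
Cdc20, chr4:118437344-118437523, minus strand: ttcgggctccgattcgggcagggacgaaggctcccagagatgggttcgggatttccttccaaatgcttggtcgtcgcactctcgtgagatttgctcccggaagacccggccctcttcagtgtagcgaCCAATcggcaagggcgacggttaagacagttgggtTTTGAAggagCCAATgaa
Espl1, chr15:102296113-102296292, plus strand: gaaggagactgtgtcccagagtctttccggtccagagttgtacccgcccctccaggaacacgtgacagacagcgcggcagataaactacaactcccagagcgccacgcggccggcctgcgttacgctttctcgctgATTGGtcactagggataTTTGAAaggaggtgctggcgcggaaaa

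In the whole window, 250 bases before to 50 after the start, CCAAT boxes and CHR elements were frequent in these genes whether or not they were called. Of the 36 genes, 31 had a window (Aurkb, Tpx2, Incenp, Fbxo43 and Ccna2 did not). A CCAAT box was found in 24 of the 31 (77.4%), against 42.6% of 11126 tested and 41.1% of all 27025 genes with a window. It was found in all 4 called genes with a window and in 20 of the 27 uncalled ones. A CHR element was found in 14 of the 31 (45.2%), against 14.7% of the tested genes and 20.2% of all genes with a window. It was in 2 of the 4 called genes and 12 of the 27 uncalled ones. In Cenpa it lay 17 to 22 bases after the start and in Fbxo5 4 to 9 bases after it, outside the bases printed. The CTCF motif core was found in 0 of the 31, against 14.1% of the tested genes and 9.84% of all genes with a window. This says only that these letters are not in the windows of the 31. Where a gene had several windows, a match in any of them counted.

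Among other genes of the same pathways, the smallest adjusted p-values were those of Haus1, a spindle gene, and Cenpk, a kinetochore gene. Of 111 such genes, from lists written from general knowledge, 108 were tested, 2 rose and 6 fell, or 7.41% called, against 16.4% of all genes tested. Their median log2 fold change was -0.0065. Median centring gave 5 higher and 3 lower. Without wild-type replicate 2, as without depleted replicate 5, 2 were higher and 5 lower. Haus1, a subunit of the augmin complex that branches spindle microtubules, fell from 408 ± 45.4 (SD, n = 5) to 202 ± 29.1, a log2 fold change of -1.01 with an SE of 0.10 (limma, Benjamini-Hochberg adjusted p = 2.82e-06). Of 35 tested genes of spindle motors, microtubules and poles, 3 fell and 0 rose, or 8.57% called, against 16.4% of all genes tested. Beside Haus1, these were Hmmr, with a log2 fold change of -0.34, and Nusap1, with -0.18. The other Hmmr probe sets gave values from -0.10 to 0.49, and Hmmr was not called under median centring or with its probe sets averaged. Nusap1 was not called when any 1 of 7 arrays was left out, under median centring or under 4 other settings.

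Among 27 tested kinetochore and centromere genes, 1 rose and 3 fell, or 14.8% called, against 16.4% of all genes tested. Cenpk, of the inner kinetochore, fell from 1136 ± 23.0 (SD, n = 5) to 870 ± 27.0, a log2 fold change of -0.38 (limma, Benjamini-Hochberg adjusted p = 2.48e-05). Cenpw, of the same network, fell from 270 ± 28.6 to 190 ± 14.0, with a log2 fold change of -0.50 and -0.68 on its other probe set. Ska3, of the outer kinetochore complex that tracks microtubule ends, rose by a log2 fold change of 0.29. The third fall, named after its values were seen, was Cenpm, at -0.20, which was lost under median centring, with no intensity trend and without any 1 of 5 arrays. Haus1, Cenpk, Cenpw and Ska3 were called under all 11 other settings and whichever array was left out. Haus1, Cenpk and Ska3 had no other tested probe set, so averaging probe sets left their values as they were. Of the 17 subunits and E2 enzymes of the anaphase-promoting complex, 0 were called by limma, with 5 at an unadjusted p under 0.05. Of 12 further checkpoint genes 0 were called, with 3 at an unadjusted p under 0.05. Of 17 other phosphatase subunits, 1 (5.88%) rose, the PP2A-binding protein Igbp1, by a log2 fold change of 0.16, and 0 fell. Igbp1 was not called with no intensity trend or with its probe sets averaged.

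**Figure D4:**
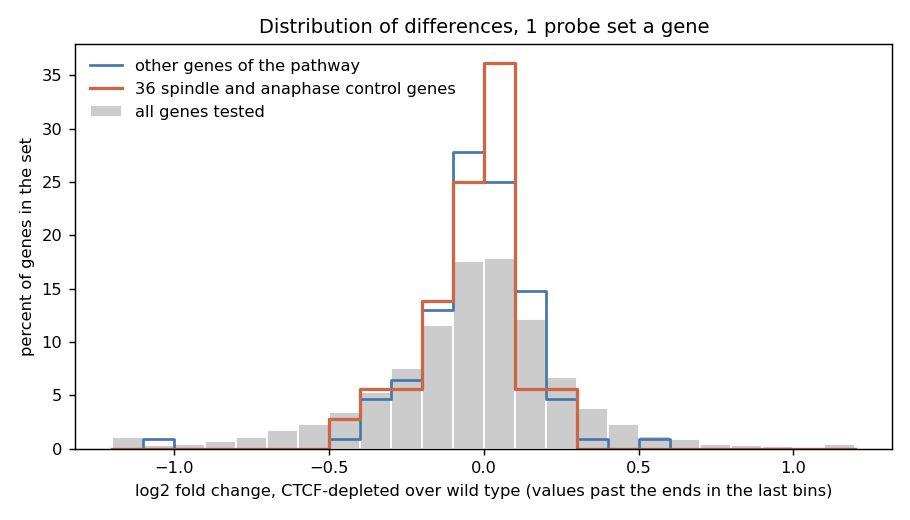
Percent of genes by log2 fold change, CTCF-depleted over wild type, in bins of 0.1, for all 13811 genes tested (grey bars), the 36 genes (orange line) and the 108 other genes of their pathways (blue line), values past 1.2 in either direction counted in the end bins. The 36 genes lie between -0.47 and 0.25, and 1 other pathway gene, Haus1, lies beyond -1.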

How the data were processed

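Per the labels' protocols, total RNA was purified with a Picopure kit and turned into biotinylated targets for arrays of 1 colour. The authors deposited an intensity for each probe set, on a linear scale, computed by MAS5 per the submitters' processing notes. Its version and settings are not given in the sources used here. The trimmed mean of every array, without 2% at each end, was 150, so arrays were scaled to equal mean signal. Sample titles gave the groups, and the platform annotation gave the gene symbols.

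Without the 64 control probe sets, log2(signal + 2.47) was taken, where 2.47 is the 25th percentile of the signals. This offset shrinks the changes of dim genes. Probe sets whose mean was under the 40th percentile were not tested. The main comparison used limma 3.58.1 in R 4.3.3 (lmFit, then eBayes with the trend option). P-values were adjusted by Benjamini-Hochberg over 27022 probe sets, and an adjusted p under 0.05 was a call. The probe set of highest mean stood for its gene. Intervals are 95% intervals of this model. The control level is the highest of 27 Bacillus control probe sets on the same array. By rule, values by array are given for the probe sets of called genes (those too dim to be tested by their range) and for the brightest gene of each role. They were added, after the values were seen, for the called probe sets of Cenpe, Sgo1 and Cks2. By the same rule, up to 3 called genes are named per list of other pathway genes (anaphase-promoting complex, checkpoint, kinetochore, spindle, phosphatase). The genes and lists were chosen with earlier results of these data known. The closing section lists the alternatives tried.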

Additional observations from a re-analysis of the deposited data

Results flagged for a closer look

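In 4 of 76 groups of 5 signals examined, 1 array stood far from the other 4, a gap that chance gives in about 5% of groups. Fzr1 read 417 on depleted replicate 2, against 329 to 346 on the other depleted arrays. Bub3 read 3917 on the same array, against 3504 to 3616. Ctcf read 61.1 and 95.8 on depleted replicate 5 on its dimmer and brighter probe sets, against at most 14.2 and 29.3 on the other depleted arrays. Fzr1 and Bub3 were not called with or without any 1 array.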

How the results depend on the processing

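The 21 alternatives were offsets of 1 and 16, no filter or a filter at the 60th percentile, median centring, quantile normalization, no intensity trend, array weights, a replicate block, the 3-prime to 5-prime covariate, averaged probe sets and each of 10 arrays left out. Genes called in all numbered 1701 to 2388 over them. Of the 36 genes, 3 were called higher, but 1 with no intensity trend and 1 with the covariate, and 2 to 3 with single arrays left out. The 3 called lower became 1 under median centring and 3 to 4 with single arrays left out. With the covariate they were 4, Cenpe being added. With averaged probe sets they were also 4 (Aurkb with Cenpe, Sgo1 and Cks2, which replaced Cdc14b and Ensa). The median log2 fold change of the 36 genes was 0.079 under median centring, where that of all genes was 0.069. It was -0.033 to 0.0043 with single arrays left out. Of other pathway genes, 2 were called higher, but 5 under median centring, 1 with no intensity trend, 4 with the mean over probe sets and 2 to 4 with single arrays left out (4 without wild-type replicate 1 or depleted replicate 3). Of these, 6 were called lower, but 3 under median centring and 4 to 7 with single arrays left out. Under median centring 709 genes were called lower in all. Hmmr turned to 0.017 with the mean over probe sets, the only reversal among called genes. The causes were not tested. In the labels, same-numbered arrays shared only a number, and nothing is said on whether they were paired. Correlations of their deviations were 0.0024 to 0.051 over 5 pairs, with 2 of 5 wild-type arrays matching their own number best. With the replicate block, 2354 genes were called in all, and of the 36 genes 3 higher and 3 lower. Signals near the top of the scale, as for Pttg1 and Bub1b, limit what can be seen.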

Other observations

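Arrays differed in how often they were the highest or lowest of their group over the 36 genes, which was not tested. Depleted replicate 2 was the highest of the depleted arrays for 15 genes, and depleted replicates 1 and 4 were the lowest for 11 each. In wild type, replicate 5 was the highest for 12 genes and the lowest for 11. The median log2 signal of the 36 genes relative to the wild-type mean lay between -0.041 and 0.015 on wild-type arrays and between -0.045 and 0.017 on depleted arrays.

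The dimmer probe set of Spc25 was above the control level on 0 wild-type arrays and 4 depleted arrays, at 6.76 ± 2.17 (SD, n = 5) and 10.3 ± 1.125, a log2 fold change of 0.49 that was not called in limma, while its bright probe set gave -0.11.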
